A study of Mus musculus with 4 samples.

Results

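The eotaxins and the genes that mark eosinophils were examined in colonic mucosa of mice that lack Itch, the gene of an E3 ubiquitin ligase. The 9 genes are the eotaxin genes Ccl11 and Ccl24, their receptor gene Ccr3, the ligand genes Ccl17 and Ccl22 with their receptor gene Ccr4, and the eosinophil markers Prg2, Siglecf and Il5ra. They were picked by name out of the 19308 genes listed for every library. Of the 9 names, 8 were found in the symbol column, and Siglecf was found by its Ensembl identifier, under which it carries the older name Siglec5. The choice was made with values of the same comparison known, so their levels and fold changes are given below as a description, with no test.

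The 4 RNA-seq libraries were made from total RNA of flash-frozen colonic mucosa. The Itch KO group held 2 libraries from mice whose genotype is given only as Itch KO and whose mucosa the protocol calls inflamed. The WT group held 2 libraries from C57BL/6 mice. A state of inflammation is written for all 4 libraries, WT included, while the protocol uses that word for the knockout mucosa only. The age, the sex, the strain background of the knockout and the number of animals behind each library are not stated in the labels. Nothing says that the 2 libraries of a group came from separate mice, so the spread between them may be technical. The tissue is whole mucosa, in which fewer cells of a type and less RNA per cell cannot be told apart.

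Eosinophils are granulocytes that live in the healthy gut wall and accumulate in type 2 immunity and in some forms of colitis. They mature under interleukin-5 and enter the tissue along gradients of the eotaxins, which act on the G protein-coupled receptor CCR3. CCL11 is made largely by stromal and epithelial cells and CCL24 largely by macrophages. CCL17 and CCL22 are made by dendritic cells and macrophages and act on CCR4, which is carried by Th2 and regulatory T cells. PRG2 is the major basic protein of eosinophil granules, SIGLEC-F is a sialic acid receptor on mouse eosinophils, and IL5RA is the chain that binds interleukin-5.

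The 4 ligands are CC chemokines, named for a pair of neighbouring cysteines, and the coding stretch around that pair is shown here because it is what places these genes in 1 family. Each stretch is from GENCODE M21 transcripts (GRCm38), with 24 bases on either side, and capitals mark the 2 cysteine codons. In Ccl24 an earlier cysteine pair also occurs, and the second is shown.
Ccl11: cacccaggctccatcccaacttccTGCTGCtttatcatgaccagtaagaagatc
Ccl24: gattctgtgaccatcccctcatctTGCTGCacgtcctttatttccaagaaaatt
Ccl17: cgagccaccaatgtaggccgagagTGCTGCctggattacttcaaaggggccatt
Ccl22: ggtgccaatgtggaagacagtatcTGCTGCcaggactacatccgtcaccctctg
All 4 stretches use the codon TGC for both cysteines. The coding sequences are 294, 360, 312 and 279 bases long for Ccl11, Ccl24, Ccl17 and Ccl22. In global alignments, identity was 53.1% between Ccl11 and Ccl24 and 54.8% between Ccl17 and Ccl22, and the other 4 pairs lay between 51.7% and 54.4%. The pair that acts on CCR3 thus lay within the range of the pairs that act on different receptors, and the pair that acts on CCR4 was the highest of the 6 by less than 1 percentage point.

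All 9 genes are protein-coding. On GRCm38, Ccl11 lies on chromosome 11 (82057823 to 82062955, plus strand) and Ccl24 on chromosome 5 (135569937 to 135573049, minus strand). Ccl22 (94745590 to 94751699) and Ccl17 (94810453 to 94812036) lie 58.8 kb apart on the plus strand of chromosome 8, with the chemokine gene Cx3cl1 between them. Ccr3 (124021972 to 124031689, plus strand) and Ccr4 (114490316 to 114504916, minus strand) are both on chromosome 9, far from each other. Prg2 is on chromosome 2 (84980461 to 84983632), Siglecf on chromosome 7 (43351341 to 43359531) and Il5ra on chromosome 6 (106710357 to 106749037, minus strand). No annotated gene overlapped any of the 9 on either strand.

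Over the 19308 genes, the Itch KO libraries held 8181193 and 9463759 counts and the WT libraries 9674531 and 12199709 counts. Itch stood at 11.9 and 13.4 CPM (counts scaled to the size of each library) in the knockout libraries, against 204 and 183 CPM in the WT libraries. Across all genes, edgeR's quasi-likelihood test called none of the 16956 genes tested as higher (0%) or lower (0%) at an adjusted p below 0.05. Itch was among the genes tested and not called, although its log2 fold change was -3.93 (SE 0.15). At an unadjusted p below 0.05 it gave 1729 higher (10.2%) and 1614 lower (9.52%). DESeq2 called 889 higher (5.35%) and 807 lower (4.85%) of the 16627 genes it adjusted, and limma voom called 0. Both WT libraries stood apart from the rest in genes of other cell types, WT replicate 1 in squamous epithelium genes and WT replicate 2 in tuft cell and neutrophil genes. Squamous epithelium genes, which do not belong to colonic mucosa, summed to 15.85 and 17.0 CPM in the knockout libraries, against 563 CPM in WT replicate 1 and 12.9 CPM in WT replicate 2. The keratin gene Krt5 was at 0.860 and 3.10 CPM in knockout libraries, against 138 and 0.244 CPM in WT libraries, and its partner Krt14 at 4.55 and 3.92 CPM against 120 and 1.06 CPM. Tuft cell genes summed to 68.7 and 106 CPM in the knockout libraries, against 64.3 CPM in WT replicate 1 and 333 CPM in WT replicate 2. Neutrophil genes summed to 439.5 and 687 CPM in the knockout libraries, against 255 CPM in WT replicate 1 and 20.5 CPM in WT replicate 2. Colon epithelium markers summed to 1349.9 and 1033 CPM in the knockout libraries and 1275 and 1152 CPM in the WT libraries, with Vil1, an actin bundler of the brush border, at 294 and 214 CPM in the knockout libraries and 280 and 240 CPM in the WT libraries, and the chloride exchanger gene Slc26a3 at 226 and 144 CPM against 305 and 198 CPM. Members of that list varied. The entry matched by symbol to the goblet cell mucin gene Muc2 was at 9.83 and 2.27 CPM in knockout, against 19.4 and 27.1 CPM in WT libraries. Whether that entry holds all reads of Muc2 was not checked, so it is not read as the level of the gene. The intestinal transcription factor gene Cdx2 was at 130 and 115 CPM in knockout, against 24.3 CPM in WT replicate 1 and 140 CPM in WT replicate 2.

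Of the 9 genes, 6 were higher in both Itch KO libraries than in both WT libraries (Ccl11, Ccl24, Ccl22, Ccr3, Ccr4 and Prg2), and Ccl17, Siglecf and Il5ra overlapped between groups. Among all genes tested, 30% were separated in that direction and 26% in the opposite one. The same shares are the background for the gene lists counted in this way below. Some listed genes passed the filter on low counts through 1 group only, and those could count only as higher in that group. Nothing is read from the 6 of 9, since the genes were chosen with these values known. The median log2 fold change was 1.33 over the 4 ligands and 1.69 over the 2 receptors and 3 markers, against 0.01 over all genes tested. These counts and medians cover all 9 genes, whatever their level. All 9 passed the filter on low counts, but the WT libraries alone would not have passed Ccl24, Ccr3, Prg2 or Il5ra, each of which reached the minimum in only 1 WT library.

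**Figure D1:**
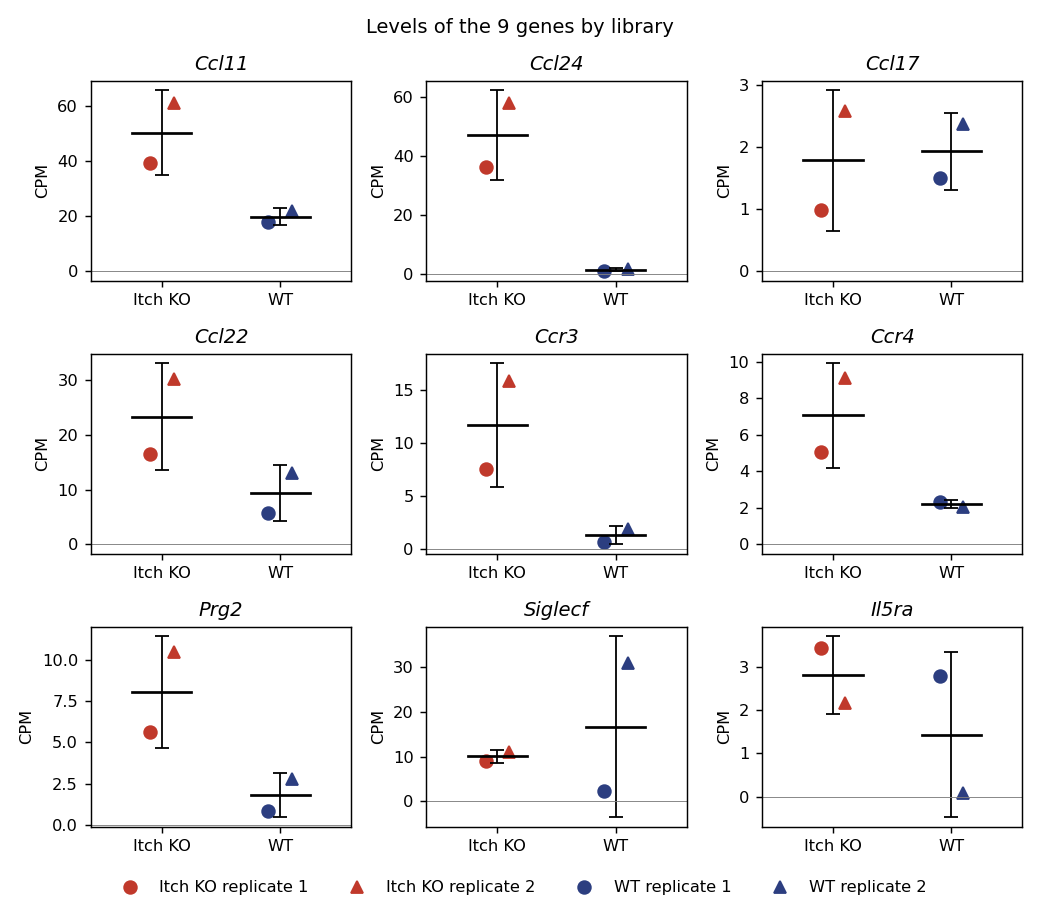
Level of each of the 9 genes in CPM (linear axis) in the Itch KO (red) and WT (blue) libraries, with circles for replicate 1, triangles for replicate 2, bars for the mean and error bars for the SD (n = 2 each). The groups separate for Ccl11, Ccl24, Ccl22, Ccr3, Ccr4 and Prg2, while WT replicate 2 is the highest library for Siglecf (30.9 CPM) and the lowest for Il5ra (0.0815 CPM).

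Ccl24, which encodes eotaxin-2, had the largest fold change of the 9 genes. It held 294 and 559 counts in the Itch KO libraries and 9 and 21 counts in the WT libraries, which is 36.1 and 57.7 CPM in knockout mucosa and 0.96 and 1.71 CPM in WT mucosa. The groups were far apart, and the lower knockout value lay well above the higher WT value. The mean was 46.9 ± 15.3 CPM in knockout and 1.34 ± 0.53 CPM in WT libraries (SD, n = 2 each), which gave a log2 fold change of 5.11 (SE 0.51). The ratio of summed counts was 34.5, with an exact 95% interval from 24.01 to 51.5 that covers counting error only. With each library left out in turn, the log2 fold change stayed between 4.74 and 5.59.

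Ccl11, which encodes eotaxin-1, was per kb of exon the most abundant of the 9 genes in WT mucosa. It stood at 39.6 and 61.3 CPM in the Itch KO libraries and at 17.8 and 22.1 CPM in the WT libraries. The groups did not overlap, and the means were 50.5 ± 15.4 CPM in knockout and 19.95 ± 3.02 CPM in WT mucosa (SD, n = 2 each). Its log2 fold change was 1.34 (SE 0.31), and between 1.00 and 1.62 with each library left out. The eotaxins thus differed in their starting point. Scaled by exon length, the level of Ccl24 was 0.763 and 0.786 of that of Ccl11 in the knockout libraries, against 0.0450 and 0.0647 in the WT libraries. Ccl24 was thus close to Ccl11 in both knockout libraries and a minor eotaxin transcript in both WT libraries.

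Ccl22, a ligand of CCR4, was at 16.5 and 30.3 CPM in the Itch KO libraries and at 5.76 and 12.96 CPM in the WT libraries. The groups did not overlap, but Itch KO replicate 1 and WT replicate 2 were close to each other, and the log2 fold change was 1.32 (SE 0.60). Without WT replicate 2 it was 2.02, and without Itch KO replicate 2 it was 0.82. Ccl17, the other ligand of CCR4, did not separate the groups. Its counts were 8 and 25 in the knockout libraries and 14 and 29 in the WT libraries, which is 0.983 and 2.58 CPM against 1.49 and 2.36 CPM. Both the highest and the lowest value were knockout libraries. The log2 fold change was -0.11 (SE 0.69), the ratio of summed counts 0.932 with an exact 95% interval from 0.574 to 1.502, and the value turned positive when Itch KO replicate 1 (0.42) or WT replicate 2 (0.26) was left out. Per kb of exon, the level of Ccl22 was 3.70 and 2.59 times that of Ccl17 in the knockout libraries and 0.853 and 1.21 times in the WT libraries. The difference between the 2 neighbouring genes was not tested.

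The promoters of Ccl22 and Ccl17 are shown because the pair shares a cluster and a receptor but had different readouts, and that of Ccr3 because it is the receptor of the eotaxins. Sequences are RefSeq's on GRCm38.p6, from 250 bases before to 50 after the annotated start, 5′ to 3′. Capitals mark matches, on either strand, to 3 motifs, namely the STAT6 palindrome (TTC and GAA with any 4 bases between), the NF-kB consensus, and GATAA, the core bound by GATA factors.
Ccl17, chr8:94810203-94810502, plus strand: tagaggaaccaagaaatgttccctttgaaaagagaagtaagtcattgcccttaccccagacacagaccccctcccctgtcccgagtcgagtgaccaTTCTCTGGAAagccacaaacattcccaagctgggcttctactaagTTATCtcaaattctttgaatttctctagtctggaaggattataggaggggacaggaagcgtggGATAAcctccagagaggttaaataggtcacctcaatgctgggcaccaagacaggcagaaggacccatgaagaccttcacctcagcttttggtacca
Ccl22, chr8:94745434-94745733, plus strand: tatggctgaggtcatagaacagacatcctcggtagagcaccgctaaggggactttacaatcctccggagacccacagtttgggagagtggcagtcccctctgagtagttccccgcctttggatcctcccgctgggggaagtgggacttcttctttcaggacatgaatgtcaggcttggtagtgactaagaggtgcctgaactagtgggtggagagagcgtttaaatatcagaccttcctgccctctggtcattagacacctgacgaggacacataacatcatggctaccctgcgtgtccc
Ccr3, chr9:124021721-124022020, plus strand: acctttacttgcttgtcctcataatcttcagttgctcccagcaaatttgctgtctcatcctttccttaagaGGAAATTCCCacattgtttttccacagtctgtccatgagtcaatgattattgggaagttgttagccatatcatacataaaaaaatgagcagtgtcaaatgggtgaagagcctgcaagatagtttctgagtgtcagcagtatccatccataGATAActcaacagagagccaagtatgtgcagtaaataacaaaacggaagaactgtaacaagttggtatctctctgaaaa
The Ccl17 window held the STAT6 palindrome TTCTCTGGAA from 154 bases upstream of the start and GATAA matches from 109 and 46 bases upstream. In the Ccl22 window none of the 3 motifs was found. The Ccr3 window held the NF-kB match GGAAATTCCC from 179 bases upstream and a GATAA match from 29 bases upstream. Among 32851 promoter windows of the same length, 6.95% held the STAT6 palindrome, 8.46% the NF-kB consensus and 25.4% GATAA. Of the other members, Siglecf, Il5ra and Ccr4 had a window, with a GATAA match in Siglecf and Il5ra, a STAT6 palindrome in Il5ra and no match in Ccr4. Ccl11, Ccl24 and Prg2 had no promoter entry, so no window of theirs was searched for the motifs. A match is a string of letters and says nothing of binding in this tissue.

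The chemokine genes next to the members were read in the same libraries, and this set was chosen after values had been seen. Beside Ccl11 on chromosome 11, Ccl2, a ligand of the monocyte receptor CCR2, was at 29.5 and 56.6 CPM in the Itch KO libraries and at 7.47 and 1.22 CPM in the WT libraries. Ccl7, 10.3 kb from Ccl11, was at 23.3 and 44.5 CPM in knockout and 6.61 and 2.53 CPM in WT mucosa, and Ccl12 at 5.65 and 13.01 CPM against 2.56 and 2.69 CPM. The log2 fold changes of Ccl2, Ccl7 and Ccl12 were 3.32 (SE 0.98), 2.90 (SE 0.67) and 1.83 (SE 0.62). Cx3cl1, which lies between Ccl22 and Ccl17 and encodes the membrane-bound chemokine fractalkine, was at 153 and 116 CPM in knockout and 178 and 154 CPM in WT mucosa. Of the 3 chemokine genes of that cluster, only Ccl22 was higher in both knockout libraries, while around Ccl11 the neighbours Ccl1, Ccl2, Ccl7, Ccl8 and Ccl12 all were. Near Ccr3, the receptor genes Ccr1 and Ccr2 were higher in both knockout libraries, with Ccr1 at 69.5 and 117 CPM against 23.7 and 16.1 CPM, whereas Xcr1, a receptor of cross-presenting dendritic cells, overlapped at 3.81 and 7.13 CPM against 4.27 and 6.68 CPM.

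Ccr3, the receptor of both eotaxins, had the second largest fold change of the 9 genes. It held 61 and 153 counts in the Itch KO libraries and 6 and 23 counts in the WT libraries, or 7.50 and 15.8 CPM in knockout and 0.64 and 1.87 CPM in WT mucosa. The groups did not overlap. The log2 fold change was 3.18 (SE 0.81), from 2.56 without Itch KO replicate 2 to 4.16 without WT replicate 2. CCR3 is also found on basophils and mast cells, and genes of those cells were high in the same libraries. In the mast cell and basophil list 9 of 11 genes were higher in both knockout libraries, with a median log2 fold change of 3.86. The list summed to 525 and 642 CPM in knockout and 165 and 240 CPM in WT libraries. The basophil protease gene Mcpt8 had 41 and 69 counts in the knockout libraries and 0 counts in both WT libraries, at least 44.5-fold higher if the WT group is set to 3 counts in all. Hdc, which encodes the enzyme that makes histamine, was at 95.2 and 184 CPM in knockout and 14.1 and 3.10 CPM in WT mucosa, while Kit, the stem cell factor receptor of mast cells and pacemaker cells, overlapped at 80.5 and 122 CPM against 103 and 208 CPM. Kit thus made up most of the summed level of the list in both WT libraries. The part of these cells in the level of Ccr3 was not tested.

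Ccr4 was at 5.04 and 9.09 CPM in the Itch KO libraries and at 2.35 and 2.04 CPM in the WT libraries. The groups did not overlap, the log2 fold change was 1.69 (SE 0.56), and it ranged from 1.21 to 2.05 with each library left out. Among the 7 genes listed for the T cells that carry CCR4, 5 were tested, and all 5 were higher in both knockout libraries. Of these, Cd40lg passed the filter on low counts only through the knockout libraries. Ccr8, which was not tested, overlapped at 0.614 and 3.20 CPM in knockout and 0.640 and 0.407 CPM in WT mucosa. Icos, a costimulatory receptor, was at 28.6 and 52.3 CPM in knockout and 4.91 and 4.48 CPM in WT mucosa. Foxp3, the lineage factor of regulatory T cells, was at 5.775 and 8.26 CPM against 1.92 and 1.96 CPM, and Cd40lg, the ligand by which helper T cells activate B cells, was at 1.47 and 4.24 CPM against 0.107 and 0.326 CPM. EdgeR called none of the 5, and DESeq2 called 1, as higher. The prostaglandin D2 receptor gene Ptgdr2, a marker of Th2 cells that eosinophils carry too, had no count in either knockout library, against 2 and 7 counts in the WT libraries.

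Prg2 was at 5.65 and 10.4 CPM in the Itch KO libraries and at 0.854 and 2.77 CPM in the WT libraries. Its counts were low, at 46 and 101 in knockout and 8 and 34 in WT mucosa. Both knockout values lay above both WT values, with a log2 fold change of 2.13 (SE 0.79) that ran from 1.56 without WT replicate 1 to 3.22 without WT replicate 2.

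Siglecf ran differently from Ccr3 and Prg2. It was at 8.97 and 11.1 CPM in the Itch KO libraries and at 2.35 and 30.9 CPM in the WT libraries. The WT libraries thus enclosed both knockout libraries and differed from each other 13.2-fold. The log2 fold change of -0.73 had a standard error of 1.19, and it was 2.08 without WT replicate 2. SIGLEC-F is also carried by intestinal tuft cells, the chemosensory cells of the epithelium. WT replicate 2 held the most tuft cell transcripts, with Trpm5, their cation channel gene, at 1.11 and 1.76 CPM in the knockout libraries, against 2.24 CPM in WT replicate 1 and 84.2 CPM in WT replicate 2. Pou2f3, the transcription factor of the lineage, was at 0.491 and 0.516 CPM in knockout mucosa, against 1.6 and 17.4 CPM in WT replicates 1 and 2. Of the most abundant genes of the list, Dclk1 was at 31.1 and 72.4 CPM against 48.9 and 130 CPM and Avil at 33.7 and 28.4 CPM against 9.28 and 48.5 CPM, so WT replicate 2 was the highest library for both. That library was the highest for 27.9% of all genes tested. The eosinophil gene Epx, with few counts, was also highest there (11 counts). In WT replicate 2 Ccr3 and Prg2 were at 1.87 and 2.77 CPM, below both knockout libraries. The part of tuft cells in the level of Siglecf was not tested.

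Il5ra had the lowest level of the 9 genes per kb in knockout mucosa. Its counts were 28 and 21 in the Itch KO libraries and 26 and 1 in the WT libraries, or 3.44 and 2.17 CPM in knockout and 2.77 and 0.0815 CPM in WT mucosa. WT replicate 1 lay between the knockout libraries, and the single count of WT replicate 2 set the difference between the groups. The log2 fold change was 1.00 (SE 1.38), and it was 0.01 without WT replicate 2 and 4.92 without WT replicate 1. In mice IL5RA is also carried by B-1 cells and some plasma cells.

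**Figure D2:**
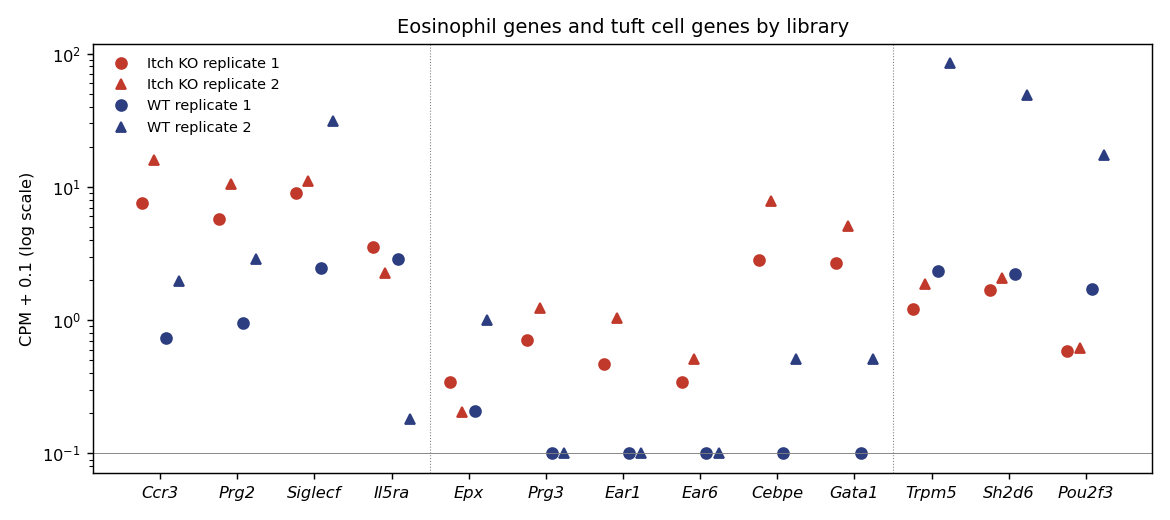
Levels in CPM, with 0.1 added so that zeros can be drawn on the log axis, for Ccr3 and the 3 eosinophil markers (left), other eosinophil genes (middle) and tuft cell genes (right), with red for Itch KO, blue for WT, circles for replicate 1 and triangles for replicate 2. Epx stays under 1 CPM in all 4 libraries, and Siglecf shares its high value in WT replicate 2 with Trpm5, Sh2d6 and Pou2f3.

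Of the other eosinophil genes, several had few counts. Epx, which encodes eosinophil peroxidase and is a defining granule gene, had 2 and 1 counts in the Itch KO libraries and 1 and 11 counts in the WT libraries. Prg3, a homologue of Prg2, had 5 and 11 counts in knockout and 0 in both WT libraries, at least 6.48-fold higher with the WT group set to 3 counts. The ribonuclease genes Ear1 (3 and 9 counts) and Ear6 (2 and 4 counts) were likewise found in knockout mucosa, against 0 counts in both WT libraries, whereas Ear2 had 18 and 46 counts in knockout and 26 and 42 counts in WT mucosa and overlapped (log2 fold change 0.17). Ear genes are near-identical copies, and their reads may be split. Cebpe, a transcription factor of granulocyte maturation shared with neutrophils, was at 2.70 and 7.75 CPM in knockout and at 0 and 0.407 CPM in WT mucosa. Gata1, which drives eosinophils, mast cells and red cells, was at 2.58 and 4.96 CPM against 0 and 0.407 CPM. Alox15, a lipoxygenase of eosinophils and macrophages, overlapped at 17.0 and 35.3 CPM against 23.6 and 2.77 CPM. Of the 9 genes of the list 4 passed the filter on low counts, and neither edgeR nor DESeq2 called any. Of the neutrophil genes, 7 of 9 were higher in both knockout libraries, against 30% of all genes tested, with the summed levels given above. Cebpe had 0 and 5 counts in WT replicates 1 and 2, too few to compare them, and the part of neutrophils in its level was not tested. Csf3r, the receptor of the neutrophil growth factor, was at 105.5 and 187 CPM against 31.4 and 3.75 CPM, whereas Ltf, which encodes lactoferrin, overlapped at 58.1 and 82.9 CPM against 126 and 2.28 CPM.

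Levels between the 9 genes were compared per kb of exon. In the Itch KO libraries Ccl11 was first with 36.6 and 56.7 CPM per kb and Ccl24 next with 27.9 and 44.6 CPM per kb, and these ranges overlapped. Ccl22 (7.08 and 13.02 CPM per kb) and Prg2 (6.74 and 12.4 CPM per kb) followed and overlapped each other but not Ccl24. Siglecf, Ccr3, Ccl17 and Ccr4 lay between 1.63 and 5.02 CPM per kb, each overlapping the next, and Il5ra was last at 0.962 and 0.607 CPM per kb. In the WT libraries Ccl11 was alone at the top with 16.5 and 20.4 CPM per kb. The other 8 genes were spread between 0.0228 and 11.1 CPM per kb, each overlapping its neighbour in the order. The eotaxin transcripts together were 28.1 and 20.97 times the level of Ccr3 per kb in knockout libraries, against 88.0 and 37.9 times in WT libraries. Split by ligand, Ccl11 was 16.0 and 11.7 times Ccr3 in knockout and 84.2 and 35.6 times in WT mucosa, whereas Ccl24 was 12.2 and 9.23 times Ccr3 in knockout and 3.79 and 2.31 times in WT mucosa.

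**Figure D3:**
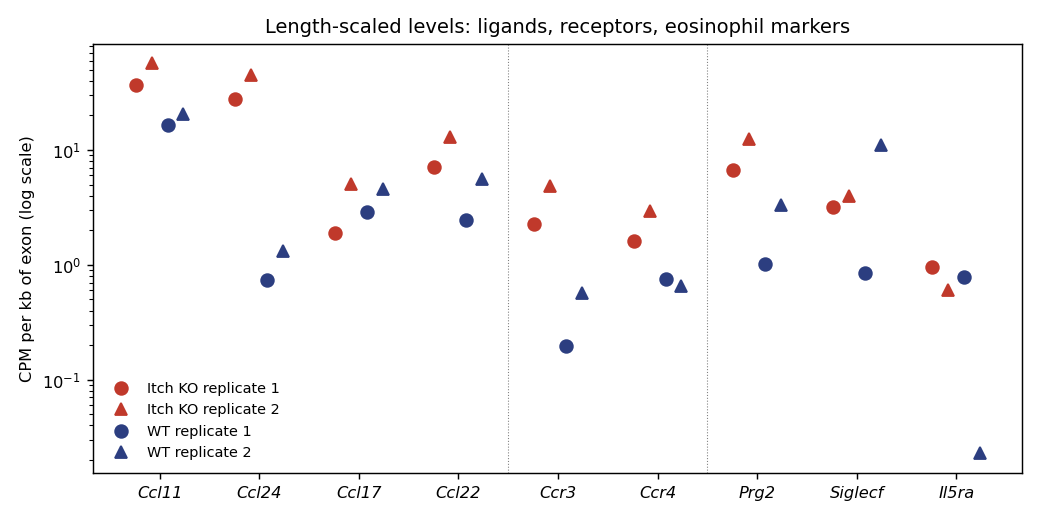
Levels in CPM per kb of exon (log axis) of the ligands (left), receptors (middle) and eosinophil markers (right), with red for Itch KO, blue for WT, circles for replicate 1 and triangles for replicate 2. Ccl24 is at 27.9 and 44.6 CPM per kb in the knockout libraries, next to Ccl11, and at 0.741 and 1.32 CPM per kb in the WT libraries.

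Since the knockout mucosa held more leukocyte transcripts, each member was also set against 6 leukocyte genes of the same library. Their mean was 124 and 154 CPM in the Itch KO libraries and 50.6 and 41.8 CPM in the WT libraries, with Ptprc, the pan-leukocyte phosphatase CD45, at 199 and 243.5 CPM against 76.2 and 72.6 CPM and Laptm5, a lysosomal protein gene of blood cells, at 175 and 200 CPM against 86.5 and 66.2 CPM. Per 100 CPM of leukocyte genes, Ccl24 was at 29.1 and 37.6 in the knockout libraries and 1.90 and 4.09 in the WT libraries, and Ccr3 at 6.04 and 10.3 against 1.27 and 4.48. For these genes the groups remained apart. On the same scale Ccl11 overlapped, at 31.9 and 39.9 in knockout and 35.2 and 52.8 in WT mucosa, and so did Ccl22, Ccr4, Prg2, Siglecf and Il5ra. Prg2 was at 4.55 and 6.79 in knockout libraries, against 1.69 and 6.63 in WT libraries. Ccl17 was lower on this scale in both knockout libraries, at 0.792 and 1.68 against 2.95 and 5.65. Ccl11 comes in part from cells that are not leukocytes, so the scale is a comparison with leukocyte signal and not a level per source cell.

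**Figure D4:**
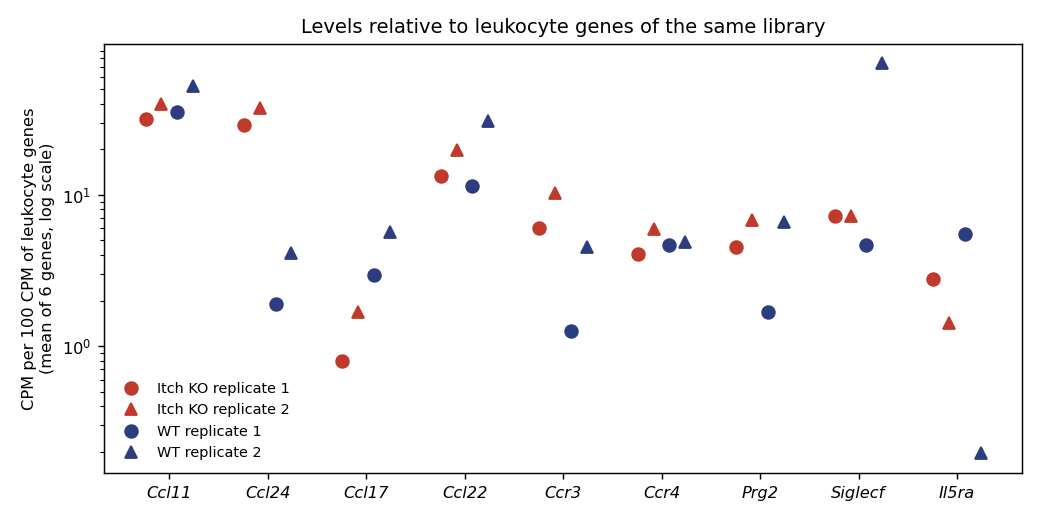
Level of each gene per 100 CPM of 6 leukocyte genes (mean of Ptprc, Cd52, Cd53, Coro1a, Laptm5 and Itgb2) in the same library, on a log axis, with red for Itch KO, blue for WT, circles for replicate 1 and triangles for replicate 2. Ccl24 and Ccr3 stay higher in both knockout libraries, Ccl17 is lower in both, and the other 6 genes overlap between groups.

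The replicates of each group differed in the same way for most members. Itch KO replicate 2 exceeded Itch KO replicate 1 for 8 of the 9 genes, with a median ratio of 1.804, against a median ratio of 0.969 over all genes tested. WT replicate 2 exceeded WT replicate 1 for 7 of the 9, with a median ratio of 1.78 against 1.00 over all genes. Itch KO replicate 2 was the highest of the 4 libraries for 7 of the 9 genes and for 25.3% of all genes tested. The knockout libraries also differed in leukocyte genes, as given above.

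**Figure D5:**
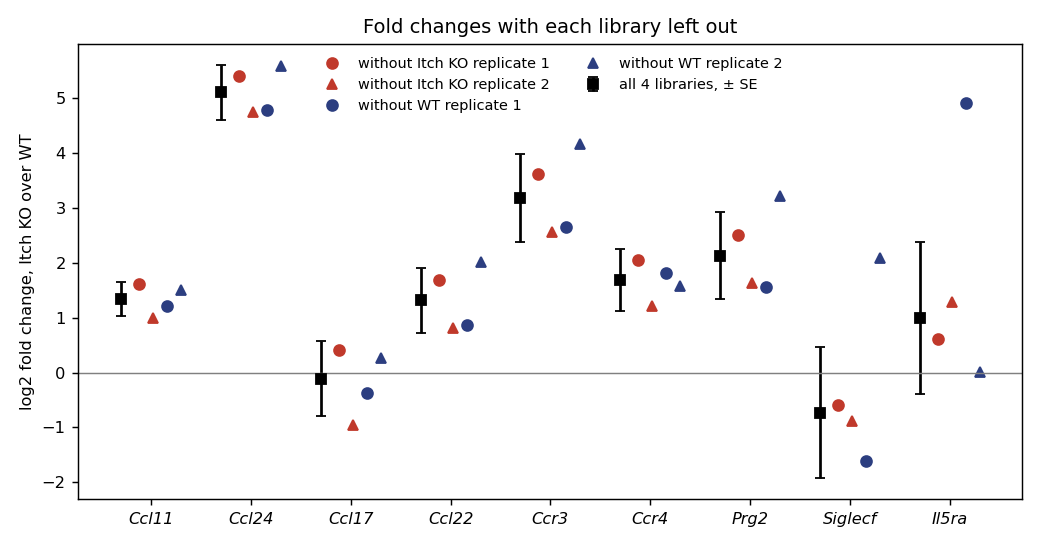
Log2 fold change of Itch KO over WT for each gene with all 4 libraries (black squares, error bars give the SE) and with 1 library left out (red for a left-out Itch KO library, blue for a left-out WT library, circles for replicate 1 and triangles for replicate 2). Ccl24 stays between 4.74 and 5.59, while Siglecf goes to 2.08 without WT replicate 2 and Il5ra to 4.92 without WT replicate 1.

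The other genes of the pathway were read from lists. Besides the eotaxins, CCR3 binds CCL5, CCL7 and CCL28. Ccl5, a T cell and monocyte attractant, was at 28.1 and 50.1 CPM in the Itch KO libraries and 7.68 and 10.6 CPM in the WT libraries, and Ccl7 was higher as given above. Ccl28, a mucosal epithelial chemokine, overlapped at 159 and 68.5 CPM against 177 and 131 CPM. EdgeR called none of the 3, and DESeq2 called Ccl5 and Ccl7 as higher.

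Growth factors of eosinophils were rare, and the receptor chains on the same list were more abundant. Il5ra, a member and not on that list, was low, as given above. Csf2, which encodes GM-CSF, had 9 and 46 counts in the Itch KO libraries and 2 in each WT library. Csf2rb, the signalling chain shared by the receptors for interleukin-5, interleukin-3 and GM-CSF, was at 156 and 274 CPM in knockout and 55.3 and 27.0 CPM in WT mucosa. Il3ra was at 37.1 and 61.0 CPM in knockout, against 18.1 and 10.4 CPM in WT mucosa. All 5 genes tested from this list were higher in both knockout libraries, with a median log2 fold change of 2.19. That median ran from 1.54 without Itch KO replicate 2 to 3.02 without WT replicate 1. Csf2 passed the filter on low counts only through the knockout libraries, so it could count only as higher. None of the 5 was called by edgeR and 3 were called by DESeq2, all as higher. The common chain is also carried by neutrophils, macrophages and mast cells, so these values do not count eosinophils.

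Among type 2 cytokines and their receptors, 8 of 12 genes tested were higher in both knockout libraries, with a median log2 fold change of 1.43. Il13, the cytokine that induces eotaxins through STAT6, had 13 and 73 counts in the Itch KO libraries and 0 in both WT libraries, at least 34.8-fold higher with the WT group set to 3 counts. Il13 thus passed the filter on low counts only through the knockout libraries and could count only as higher. Il25, listed but not tested, had 1 and 0 counts in the knockout libraries and 0 and 27 counts in the WT libraries. Il4ra, whose product takes part in both the IL-4 and the IL-13 receptor, was at 250 and 288 CPM in knockout and 109 and 121 CPM in WT mucosa. Crlf2, the receptor chain for TSLP, was at 42.3 and 55.8 CPM against 15.4 and 16.7 CPM, and Gata3, the lineage factor of Th2 cells and innate lymphocytes, at 19.2 and 22.5 CPM against 5.01 and 2.77 CPM. Stat6 itself overlapped at 178 and 167 CPM in knockout and 172 and 175 CPM in WT libraries. EdgeR called none of the 12, and DESeq2 called 5, all as higher.

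Genes that interleukin-4 and interleukin-13 induce were mixed, with 5 of 11 higher and 1 lower in both knockout libraries and a median log2 fold change of 0.76. That median was 0.21 without Itch KO replicate 2 and 1.25 without Itch KO replicate 1, and 1.44 with limma voom. Chil3, a chitinase-like protein of macrophages and neutrophils, was at 55.5 and 93.3 CPM in the Itch KO libraries and 3.31 and 1.22 CPM in the WT libraries. Fcer2a, the low-affinity IgE receptor of B cells, was at 53.7 and 60.5 CPM in knockout and 2.88 and 0.652 CPM in WT mucosa. Socs1, a feedback inhibitor of cytokine signalling that interferons induce as well, was at 40.2 and 61.45 CPM against 8.11 and 10.3 CPM. The member that ran the other way was Retnla, a macrophage gene of type 2 immunity, at 3.44 and 11.3 CPM in knockout and 15.3 and 17.8 CPM in WT mucosa. None of the 11 was called by edgeR and 4 by DESeq2, all as higher.

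The genes of chemokine removal and of eosinophil adhesion held 6 of 11 that were higher and 2 that were lower in both knockout libraries, with a median log2 fold change of 1.12 (1.78 when WT replicate 1 was left out, 0.65 when Itch KO replicate 2 was). Dpp4, a peptidase that trims CCL11 and CCL22 and is abundant on absorptive epithelium, was at 34.9 and 24.99 CPM in the Itch KO libraries and 93.7 and 138 CPM in the WT libraries. Madcam1, the vascular ligand of gut-homing integrin, was at 55.3 and 75.9 CPM in knockout and 13.2 and 7.33 CPM in WT mucosa. Itgb7, which encodes the beta chain of that integrin, was at 71.9 and 98.3 CPM against 17.6 and 20.8 CPM. EdgeR called none, while DESeq2 called 3 higher and 1, Dpp4, lower.

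Markers of the cells that make the ligands were read beside them. Dendritic cell genes were higher in both Itch KO libraries for 7 of 10, with summed levels of 297 and 465 CPM in knockout and 137 and 145 CPM in WT libraries. Cd83 was at 73.6 and 77.05 CPM against 23.6 and 37.1 CPM, and Fscn1, an actin bundler of mature dendritic cells, at 50.7 and 101 CPM against 43.2 and 23.96 CPM. Macrophage genes were higher in both knockout libraries for 7 of 9, with summed levels of 613 and 820 CPM in knockout and 481 and 438 CPM in WT libraries. Csf1r was at 155 and 208 CPM against 89.9 and 61.2 CPM, and Mertk, an efferocytosis receptor, was lower, at 63.0 and 54.3 CPM against 88.9 and 166 CPM. Fibroblast genes were higher in both knockout libraries for 2 of 10, near the share of 30% over all genes tested. They summed to 1440 and 2199 CPM in knockout and 1826 and 1120 CPM in WT libraries. Col3a1 was at 374 and 469 CPM against 438 and 272 CPM and Col1a1 at 271 and 433 CPM against 337 and 168 CPM. Ccl11 had a log2 fold change of 1.34 (SE 0.31), and the median log2 fold change of the fibroblast genes was 0.27. That median ran from -0.04 without WT replicate 2 to 0.70 without WT replicate 1. The part of any of these cells in the ligand levels was not tested. No gene of the 3 lists was at 0 in all libraries. EdgeR called no gene of any cell type list. DESeq2 called 9 of 11 mast cell and basophil genes, 5 of 10 dendritic cell, 5 of 9 neutrophil and all 6 leukocyte genes as higher, 2 of 9 macrophage genes as higher and 1 as lower, 3 of 6 tuft cell and 1 of 4 squamous genes as lower, and no fibroblast or colon epithelium gene.

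The genes most like each member were sought among 13325 genes that averaged 5 CPM or more and are neither members, antigen receptor segments nor unnamed models, by the Euclidean distance between centred log2 profiles over the 4 libraries. With only 4 points, these likenesses are descriptions. Closest to Ccl11 were Vav1, a signalling protein of blood cells (distance 0.05, with 81.0 and 120 CPM in Itch KO and 35.6 and 45.2 CPM in WT libraries), Amz1 and Sema7a. Closest to Ccl24 were Vpreb3, a B cell gene (distance 0.40), the chemokine gene Ccl4 and the mast cell and basophil gene Fcer1a, at 23.96 and 24.9 CPM in knockout and 0.64 and 0.65 CPM in WT mucosa. Ccr3 was closest to Cd300lf, a myeloid inhibitory receptor (distance 0.18, with 70.7 and 159 CPM in knockout and 10.03 and 24.4 CPM in WT libraries), followed by Podnl1 and Stac2. The nearest profiles to Ccl22 were those of Traf1 (distance 0.08), Soat2 and Skap1, to Ccr4 those of Pfkfb3 (0.07), Apol10b and Icam2, to Prg2 those of Nfil3 (0.22), Arhgap9 and Smpd5, and to Ccl17 those of Tdrkh (0.10), Zfp28 and Rnd2. Siglecf was closest to Ggt1, Tmigd1 and Cidec, with distances of 0.41 to 0.52. Ggt1 was at 38.1 and 44.0 CPM in knockout libraries, against 10.7 CPM in WT replicate 1 and 89.1 CPM in WT replicate 2, so it shared the high value of that library. Il5ra was closest to Cers3, Sval1 and Prss27, with distances of 0.22 to 0.35, all of them lowest in WT replicate 2.
Among the 9 genes themselves, Ccl11 and Ccr4 were nearest to each other (0.38), Prg2 was nearest to Ccl22 (0.66), and Ccr3 was nearest to Prg2 (0.86). Ccl24 (1.93), Il5ra (1.91) and Siglecf (2.08) were the farthest from their nearest member.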

How the data were processed

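The authors deposited raw counts of reads per Ensembl gene, 1 file per library. Per the submitters' processing notes, the tools were HTSeq 0.6.1, TopHat2, CASAVA 1.8.2 and SAMtools 0.1.19, and the genome GRCm38, also named as mm10. Whether counting used strand, and whether duplicates were removed, is not given in the sources used. For WT replicate 1 the file holds 19308 genes and gives symbols, while the other 3 hold 39179. Tests used the shared genes, which hold at least 97.3% of the counts of the longer files. HTSeq's summary lines were left out: reads outside genes were 18.2% to 23.0% and ambiguous reads 2.67% to 3.03% of the 3 longer files.

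CPM used TMM factors. Tests were edgeR 4.0.16 (quasi-likelihood, robust, filterByExpr with a minimum count of 10, Benjamini-Hochberg at 0.05, two-sided) in R 4.3.3, with DESeq2 1.42.0 and limma voom 3.58.1 as alternatives. EdgeR and DESeq2, but not limma voom, were also run on simulated counts, and the calls of that run are not given here. The filter kept 16956 genes, all 9 members among them, and with 2 residual degrees of freedom the common biological variation came to 34.8%. Standard errors are those of the edgeR fit. Medians over members come from the fit without a filter. Exon length is the union of GENCODE M21 exons. Coding sequences were aligned with Biopython 1.88. Intervals and floors cover counting error only, and 3 counts are 0.246 to 0.367 CPM.

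The 9 members and the 16 lists (7 of the pathway, 9 of cell types) were chosen with earlier results of these data known. Named genes are the members, Itch, up to 3 genes with the smallest edgeR p from each pathway list, up to 2 with the highest mean CPM from each cell list, and the 3 nearest profiles of each member. Others were named after their values were seen.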

Additional observations from a re-analysis of the deposited data

Results flagged for a closer look

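Genes outside the shortest count file were not part of the comparison, and among the listed eosinophil growth factor genes 2 had more counts in both Itch KO libraries than in WT replicate 2. Il5, the main eosinophil growth factor, had 7 and 4 counts in the knockout libraries (0.860 and 0.413 CPM) and 1 count in WT replicate 2 (0.0815 CPM). Il3, which also supports eosinophils, basophils and mast cells, had 1 and 9 counts in the knockout libraries (0.123 and 0.930 CPM) and 0 counts in WT replicate 2. WT replicate 1 gives no value for these genes, so no test was made.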

How the results depend on the processing

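EdgeR called 0 genes in either direction under every alternative that used it (RLE or upper-quartile factors, no filter, a mean of at least 5 CPM, no robust estimation, a replicate block, and each library left out), and limma voom called 0, while DESeq2 called 889 higher and 807 lower; the cause was not tested. The median log2 fold change of the 4 ligands stayed between 0.91 and 1.77 over all 12 alternatives. That of the receptors and markers, 1.69 with all libraries, was 1.21 with a mean of at least 5 CPM, which leaves fewer members, and 2.25 with limma voom, and it ranged from 1.29 to 2.09 with 1 library left out. The sign of Ccl17 differed when WT replicate 2 or Itch KO replicate 1 was left out. Siglecf was at 0.08 with limma voom and 0.16 with the replicate block, against -0.73, and Il5ra at 2.33 with limma voom, against 1.00. Of the list medians, that of tuft cells was -0.09 without WT replicate 2, against -2.54, and that of squamous epithelium 2.50 without WT replicate 1, against -4.08. The median of the genes that IL-4 and IL-13 induce moved as given above and was 1.38 with the replicate block, that of other eosinophil genes, 2.51 with all libraries, ranged from 1.95 to 4.22 with 1 library left out and was 0.99 with a mean of at least 5 CPM, and without WT replicate 1 that of neutrophil genes was 4.74, against 3.08. The labels number the libraries 1 and 2 in both groups but tie no number to a shared animal or day, and deviations of same-numbered libraries correlated at 0.04 across genes, so the replicate block pairs libraries by number only, and the ligand median under it was 1.34 and that of receptors and markers 1.85. With 2 libraries a group, edgeR's adjusted test called no difference of any size, not even that of Itch (log2 fold change -3.93, SE 0.15). The lack of an edgeR call is thus no sign that a gene was unchanged. Lowest counts were 1 to 22 for 7 of the members, so their lowest values carry a large counting error, besides the limit of 2 libraries a group.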
